A study of Mus musculus with 18 samples.

Results

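Day 16 Msx1-negative cells of mouse embryoid bodies were compared with mouse embryonic stem (ES) cells across every gene row of a count table of 5 cell groups. The members are the 54114 gene rows of that table, read in the 2 libraries of day 16 Msx1-negative cells and the 2 libraries labelled ES, 4 of the 18 samples that the labels of the series describe. Of these rows, 17435 had no count in any of the 10 libraries of the table, and 22504 passed a filter on low counts and were tested. The Msx1-negative cells came from the Msx1-tdTomato ES cell line, which carries a fluorescent reporter of Msx1, with the genotype given as inducible Dlx2 overexpression. They came from embryoid bodies formed in hanging drops, with doxycycline at 1 µg/ml, and were isolated at day 16 by fluorescence-activated sorting as the fraction without the reporter's signal. The ES cells carry the same line name, with genotype WT and no treatment, and were kept in serum with LIF, the cytokine that sustains mouse ES cells. Dlx2 genotype, doxycycline, embryoid body culture, time and sorting all differ between the groups and cannot be told apart here. Where it shows what differs, the Msx1-negative group was also set against Msx1-negative cells of day 8 and against Msx1-positive cells of day 16, which share its line, doxycycline and sorting.

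Embryoid bodies are aggregates in which ES cells leave the pluripotent state and form derivatives of the embryo and of its membranes. The outer layer of such aggregates commonly becomes primitive endoderm, which gives rise to visceral endoderm, an absorptive and secretory epithelium, and to parietal endoderm, which lays down the thick basement membrane known as Reichert's membrane. Dlx2 and Msx1 encode homeobox transcription factors of the mesenchyme that cranial neural crest forms in the face and teeth, called ectomesenchyme, so the sort by Msx1 sets aside the cells with that reporter active.

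Levels are CPM, the reads of a gene scaled to a common effective library size, and are given in the order of replicates 1 and 2. They compare a gene between libraries and are not corrected for gene length. Each change is a fold change on the log2 scale with its standard error (SE), and calls were made where edgeR's quasi-likelihood test gave a Benjamini-Hochberg adjusted p under 0.05. Total counts were 59723478 and 60386613 in the Msx1-negative libraries and 54884142 and 53797597 in the ES-labelled libraries. The smallest two-sided exact p that a single value can reach with 2 libraries against 2 is 0.333, so calls rest on the spread that all genes share. The labels do not say whether replicates were separate cultures, so p-values measure the spread between these libraries, which may be technical. These are bulk samples, in which fewer cells of a type and less RNA per cell cannot be told apart.

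Dlx2 itself stood at 131 and 146 CPM in Msx1-negative libraries, against 219 and 222 CPM in ES-labelled libraries. Both ES-labelled libraries lay above both Msx1-negative ones, with a log2 fold change -0.67 ± 0.077 SE, adjusted p = 1.49e-06. Libraries labelled wild-type and untreated thus held more Dlx2 than these libraries labelled for its overexpression, so they are called ES-labelled throughout. No other wild-type, untreated cells were used as a baseline, and whether the label is right was not tested. Msx1, the gene behind the sort, had 0.818 and 0.752 CPM in Msx1-negative libraries, against 0.212 and 0.627 CPM in ES-labelled libraries and 73.7 and 81.6 CPM in the Msx1-positive libraries of day 16. Msx1 was near its detection limit in the first 2 groups and was not called between them (adjusted p = 0.147). Tmpo, which encodes the nuclear envelope protein LAP2, had 217 and 223 CPM in Msx1-negative libraries, against 231 and 245 CPM in ES-labelled libraries, and was not called (adjusted p = 0.0777).

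In all, 6407 genes were higher in Msx1-negative than in ES-labelled cells, 28.5% of the genes tested, and 5513 were lower, 24.5%. The larger changes lay on the higher side. A log2 change of at least 1 was reached by 3790 higher genes (16.8%) and 1055 lower genes (4.69%). A fitted log2 change of at least 5 was reached by 990 higher genes, while 14 fell by 5 or more. Where a group had no count the fitted value is not a measured fold. How many of the 990 and of the 14 are such genes was not counted. Of the tested genes, 1001 had no count in either ES-labelled library, and 719 of these were called higher. The same count for the Msx1-negative libraries was 101 genes, of which 13 were called lower. Genes with no count in ES-labelled libraries passed the filter through other groups and could not be called lower. Likewise, genes with no count in Msx1-negative libraries could not be called higher. Most groups in the filter were embryoid body cells, so these counts are no separate support for larger changes on the higher side. Among protein-coding genes 33.2% were higher and 30.4% lower, against 16.3% and 5.95% among antisense RNAs and 11.1% and 9.84% among pseudogenes. The labels do not say whether the libraries mark the strand, so reads of an antisense RNA and of its partner gene may not be separated.

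**Figure D1:**
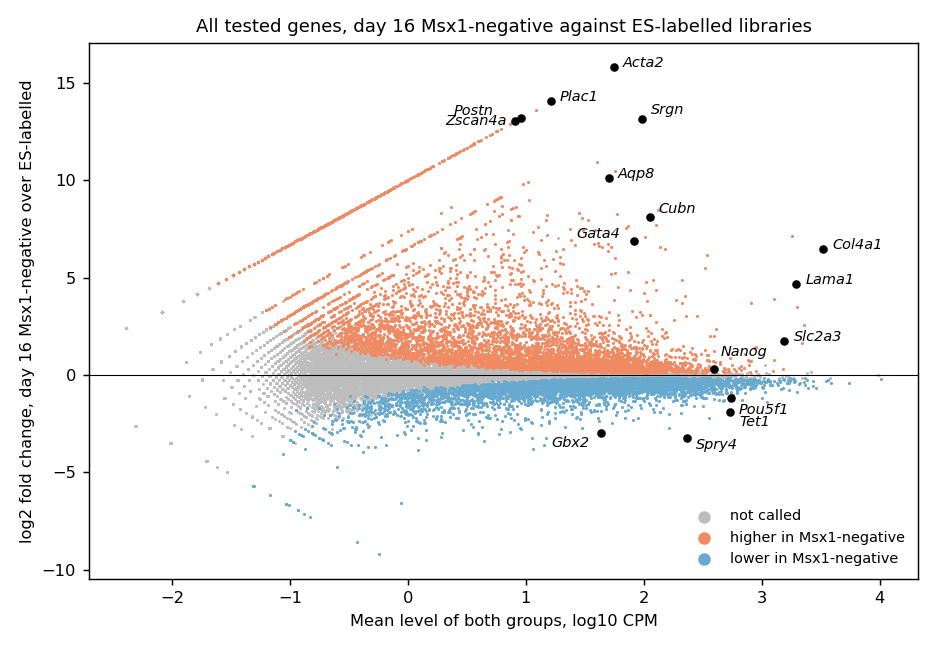
Each point is a tested gene with a count in either group, by its mean level over the 2 groups (horizontal, log10 CPM) and its log2 fold change of day 16 Msx1-negative over ES-labelled cells (vertical). Points above the line at 0 reach log2 values of over 10, while few points lie below -4. The straight line of points at the upper left holds genes with no count in ES-labelled cells, whose fitted values are not measured folds.

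Among genes of at least 10 CPM, and leaving out predicted genes and pseudogenes, the 15 with the largest fitted increase were led by Acta2, the actin of smooth muscle. It had 111 and 111 CPM in Msx1-negative libraries and no count in either ES-labelled library, at least 3797-fold higher when the ES-labelled pair is set to a floor of 3 counts in sum. The same floor gave at least 1118-fold for Plac1, an X-linked gene of the placenta (chromosome X, bases 53069995 to 53240111 on the minus strand of GRCm38). It gave at least 831-fold for Gkn2, a secreted protein of the stomach, and at least 624-fold for Zscan4a, a marker of the 2-cell embryo. For Postn (a matrix protein), S100g (a calcium-binding protein), Enpep (a membrane aminopeptidase), Tmem92, Ttr (transthyretin, which visceral endoderm and liver secrete) and Tpbpa (a marker of spongiotrophoblast), also with no count in ES-labelled cells, the bounds ran from 389.8-fold to 559-fold. Srgn, the core protein of a proteoglycan of secretory granules, had 203 and 182 CPM in Msx1-negative libraries, against 0 and 0.0392 CPM in ES-labelled libraries. Those ES values come from 2 reads in all, so its ratio of 9921 has a 95% counting interval of 2746 to 81929. Serpinb9e, a protease inhibitor gene in a cluster of similar copies that reads may not tell apart, had 19.3 and 18.7 CPM in Msx1-negative libraries, against 0 and 0.0392 CPM in ES-labelled libraries. Tnc, Col3a1 and Aqp8 completed the set and are given with their groups.

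The 15 strongest decreases among genes of at least 10 CPM were smaller. Spry4, a feedback inhibitor of receptor tyrosine kinase signalling, had 42.0 and 46.0 CPM in Msx1-negative libraries, against 434 and 404 CPM in ES-labelled libraries (log2 fold change -3.25 ± 0.078 SE, adjusted p = 1.10e-15). Gbx2, a homeobox gene of naive pluripotent cells and of the hindbrain boundary, had 10.1 and 9.9 CPM in Msx1-negative libraries, against 77.8 and 77.1 CPM in ES-labelled libraries. In both genes the groups lay far apart and the replicates close together. Hmces, which shields abasic sites in DNA, had 43.4 and 42.0 CPM in Msx1-negative libraries, against 279 and 291 CPM in ES-labelled libraries. Others were Urah, Naprt (an enzyme of NAD synthesis), Tgm3 (a transglutaminase), Pou4f2 (a factor of retinal ganglion cells), Nkx6-2, Zp3 (a protein of the egg coat), Bcl6b, Kirrel2, Exoc3l, Acap1 and Coro1a, with log2 changes between -3.60 and -2.52. Annotated exons of Naprt overlap those of Eef1d, exons of Nkx6-2 those of Inpp5a, and exons of Coro1a those of Bola2, so their counts may hold reads of the neighbour.

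Genes of pluripotency fell, but stayed at high levels, with Nanog as an exception. Of 13 tested core pluripotency genes, 12 were lower in Msx1-negative than in ES-labelled cells and Nanog was higher. Over all tested genes 24.5% were lower and 28.5% higher. The list median was -0.92 (log2), against 0.06 over all tested genes. Pou5f1, which encodes Oct4, had 329.7 and 339 CPM in Msx1-negative libraries, against 749.6 and 773 CPM in ES-labelled libraries (log2 fold change -1.19 ± 0.053 SE, adjusted p = 4.29e-12). The groups did not overlap. Tdgf1, a co-receptor for Nodal, had 618 and 609 CPM in Msx1-negative libraries, against 1601 and 1629 CPM in ES-labelled libraries, and Utf1, a chromatin factor of pluripotent cells, had 326 and 341 CPM in Msx1-negative libraries, against 782 and 708 CPM in ES-labelled libraries. Esrrb and L1td1 fell by 0.98 and 1.28 on the log2 scale, and Lin28a was also lower. Nanog, the homeobox factor that resists differentiation, had 445 and 426 CPM in Msx1-negative libraries, against 332 and 364 CPM in ES-labelled libraries (log2 fold change 0.32 ± 0.07 SE, adjusted p = 8.38e-04). Against Msx1-positive cells of day 16, where 30.8% of all tested genes were higher in Msx1-negative cells and 30.5% lower, all 13 were higher, and in the Msx1-positive libraries Pou5f1 had 15.9 and 16.5 CPM and Nanog 15.7 and 17.4 CPM.

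Naive pluripotency genes split. Of 20 tested, 13 were lower and 6 higher in Msx1-negative than in ES-labelled cells. The shares over all tested genes were 24.5% lower and 28.5% higher. Klf5 had 195 and 217 CPM in Msx1-negative libraries, against 467 and 468 CPM in ES-labelled libraries, and Klf4, Tfcp2l1, Nr5a2 and Fgf4 were also lower. Against that direction, Fbxo15, an F-box gene used as an ES cell reporter, had 128 and 127 CPM in Msx1-negative libraries, against 38.7 and 36.2 CPM in ES-labelled libraries (log2 fold change 1.77 ± 0.14 SE, adjusted p = 1.40e-06). The other higher members were Klf2, Prdm14, Tcl1, Dppa3 and Manba, by log2 changes of 0.47 to 0.87. Prdm14 and Dppa3 are also genes of primordial germ cells. Of 15 formative and primed genes, which mark the epiblast after implantation, 7 were higher and 8 lower. Fgf5 had 8.46 and 8.69 CPM in Msx1-negative libraries, against 0.405 and 0.353 CPM in ES-labelled libraries, Zic2 had 52.6 and 64.0 CPM in Msx1-negative libraries, against 7.81 and 8.14 CPM in ES-labelled libraries, and Otx2 rose by 1.17. The methyltransferase genes Dnmt3b and Dnmt3l fell by 1.14 and 1.21, and Tet1, which oxidises methylcytosine, had 227 and 239 CPM in Msx1-negative libraries, against 858 and 847 CPM in ES-labelled libraries. Over the DNA methylation list 2 of 10 genes were higher and 7 lower, and Tet3 was among the higher ones (log2 change 1.07).

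Markers of the 2-cell embryo, which a small share of cells in an ES culture can switch on, were nearly absent from ES-labelled libraries and present in Msx1-negative ones. All 9 tested members of the 2-cell-like list rose, 3 other listed genes did not pass the count filter and 1 was not matched in the table. The whole list summed to 0.270 and 0.314 CPM in ES-labelled libraries. Its members therefore passed that filter through other groups and could hardly be called lower, so the count of 9 is no separate support. Zscan4c had 19.09 and 15.44 CPM in Msx1-negative libraries, against 0 and 0.118 CPM in ES-labelled libraries. Usp17la, a deubiquitinase gene, had 9.01 and 8.77 CPM in Msx1-negative libraries, against 0.0386 and 0.0392 CPM in ES-labelled libraries. Tcstv1 and Zfp352 had no count in ES-labelled cells and were at least 250.4-fold and 125-fold higher. The 4 genes Zscan4a, Zscan4c, Zscan4d and Zscan4f summed to 64.2 and 55.8 CPM in Msx1-negative libraries, against 0.193 and 0.196 CPM in ES-labelled libraries. These families hold near-identical copies, so the split of reads among Zscan4, Tcstv and Usp17l genes is uncertain, and the sum is the firmer value. Germline genes gave 7 higher and 2 lower of 17 tested, where 28.5% of all tested genes were higher and 24.5% lower. Dazl, an RNA-binding protein of germ cells, had 90.7 and 77.4 CPM in Msx1-negative libraries, against 15.6 and 18.2 CPM in ES-labelled libraries (log2 fold change 2.31 ± 0.12 SE, adjusted p = 4.17e-10). Stra8, a gene that retinoic acid induces in germ cells before meiosis, had 39.1 and 38.3 CPM in Msx1-negative libraries, against 9.51 and 11.1 CPM in ES-labelled libraries. Ddx4, a defining gene of later germ cells, had 25.8 and 22.2 CPM in Msx1-negative libraries, against 24.7 and 26.7 CPM in ES-labelled libraries, and was not called (adjusted p = 0.368). Mael and Tex19.1, which act against transposons in the germline, were the lower members.

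**Figure D2:**
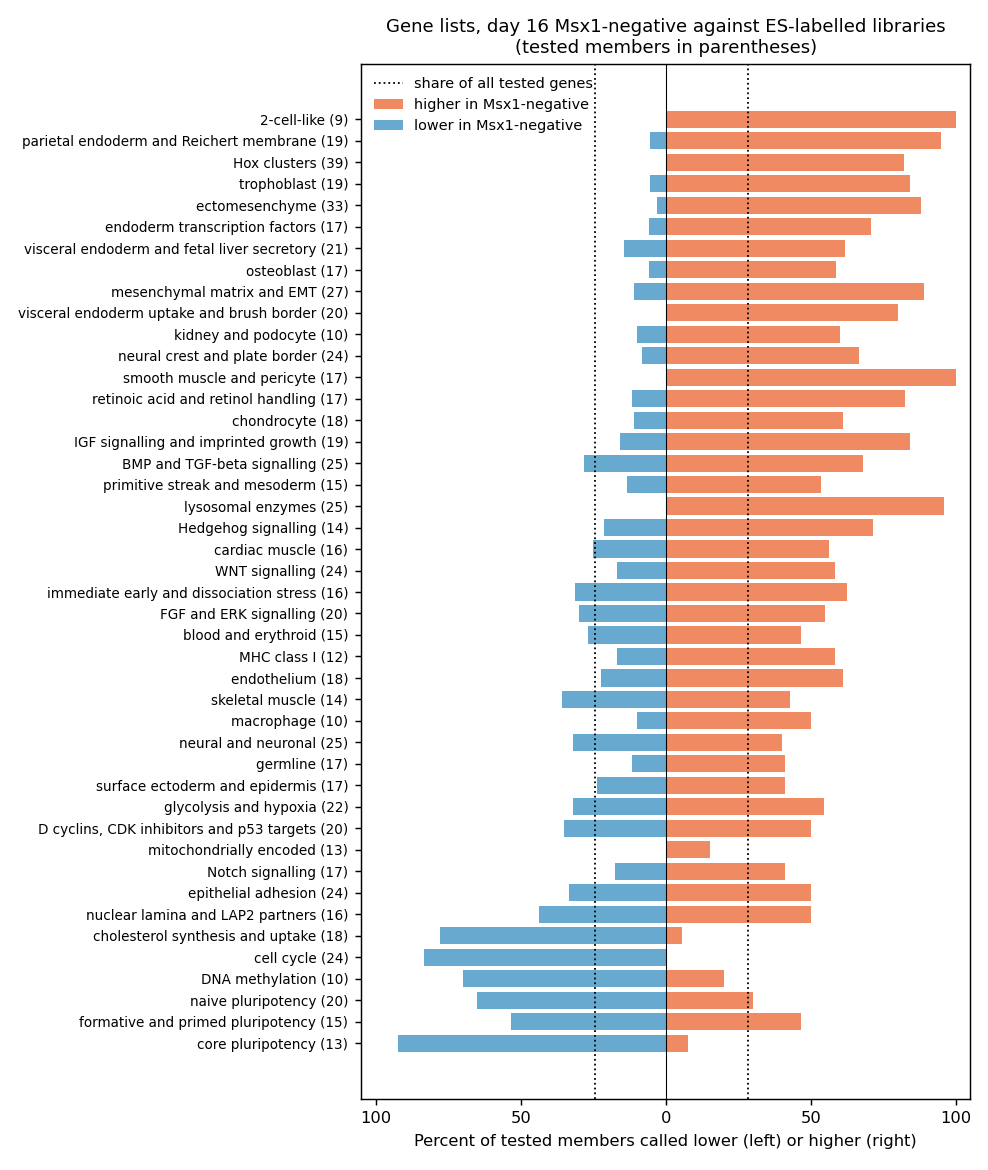
Bars give, for each of the 44 gene lists, the percent of tested members called higher (right) or lower (left) in day 16 Msx1-negative than in ES-labelled cells, ordered by the median log2 fold change. Dotted lines mark the share of all tested genes, 28.5% higher and 24.5% lower. Bars of the endoderm, trophoblast and mesenchyme lists reach right, and those of the core pluripotency and cell cycle lists reach left.

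Genes of extraembryonic endoderm rose, several of them to high levels. Of 17 tested endoderm transcription factors, 12 were higher in Msx1-negative than in ES-labelled cells, 1 was lower and 4 were not called (list median 3.29). Among all tested genes 28.5% were higher and 24.5% lower. Gata4 had 163 and 165 CPM in Msx1-negative libraries, against 1.52 and 1.25 CPM in ES-labelled libraries (log2 fold change 6.88 ± 0.11 SE, adjusted p = 1.21e-17). Gata6 had 78.8 and 82.5 CPM in Msx1-negative libraries, against 0.675 and 0.784 CPM in ES-labelled libraries, and Sox17 had 80.6 and 85.7 CPM in Msx1-negative libraries, against 0.887 and 0.765 CPM in ES-labelled libraries. These 3 are factors of primitive endoderm, and their groups lay far apart. Sox7 rose by 4.04 and Foxa2 by 8.58. Set against Msx1-positive cells of day 16, 9 of the 17 factors were higher in Msx1-negative cells and 3 lower. There 30.8% of all tested genes were higher and 30.5% lower. Sox17 stood at 80.6 and 85.7 CPM in Msx1-negative libraries, against 8.7 and 10.4 CPM in Msx1-positive libraries.

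The list of parietal endoderm and Reichert's membrane rose nearly as a whole. Of its 19 tested members 18 were higher in Msx1-negative than in ES-labelled cells (median 4.70), and Grb10, an imprinted adaptor gene, was lower by 0.35. Over all tested genes 28.5% were higher and 24.5% lower. Against Msx1-positive cells 13 of the 19 were higher and 3 lower, beside 30.8% and 30.5% of all tested genes. The list summed to 25965 and 27367 CPM in Msx1-negative libraries. It summed to 8370 and 8015 CPM in Msx1-positive libraries, against 1713 and 1684 CPM in ES-labelled libraries. Col4a1 and Col4a2 encode the collagen IV chains that, with laminin, form the network of every basement membrane. Col4a1 had 6533 and 6681 CPM in Msx1-negative libraries, against 73.2 and 76.1 CPM in ES-labelled libraries (log2 fold change 6.47 ± 0.079 SE, adjusted p = 3.56e-19). Col4a2 had 3506 and 3733 CPM in Msx1-negative libraries, against 26.6 and 23.7 CPM in ES-labelled libraries (log2 fold change 7.17 ± 0.1 SE, adjusted p = 1.19e-17). The genes lie side by side on chromosome 8 on opposite strands, and the RefSeq windows around their starts (GRCm38.p6, 250 bases before to 50 after) share 78 bases, 11312777 to 11312854. They are shown because both genes rose and their start windows overlap, each on its own strand, with the shared bases in capitals.
Col4a1, chr8:11312777-11313076, minus strand: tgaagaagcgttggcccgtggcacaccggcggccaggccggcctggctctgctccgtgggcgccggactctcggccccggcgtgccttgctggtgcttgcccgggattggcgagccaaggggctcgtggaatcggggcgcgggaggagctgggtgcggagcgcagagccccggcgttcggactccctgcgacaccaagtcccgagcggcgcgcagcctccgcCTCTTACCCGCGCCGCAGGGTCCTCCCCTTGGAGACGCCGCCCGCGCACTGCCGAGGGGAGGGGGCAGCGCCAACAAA
Col4a2, chr8:11312555-11312854, plus strand: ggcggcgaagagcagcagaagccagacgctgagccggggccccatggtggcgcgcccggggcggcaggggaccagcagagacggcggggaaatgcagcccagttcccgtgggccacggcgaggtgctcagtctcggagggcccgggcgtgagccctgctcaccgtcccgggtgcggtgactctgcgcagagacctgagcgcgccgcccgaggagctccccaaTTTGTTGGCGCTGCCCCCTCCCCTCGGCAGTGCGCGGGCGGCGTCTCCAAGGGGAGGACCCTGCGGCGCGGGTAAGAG
The capitals are the same stretch of DNA read on opposite strands. A start window that shares bases with that of an opposite-strand gene is not rare, at 10.8% of 32851 windows. Each window holds 1 CCAAT motif (either strand), which 37.4% of all windows hold, and no TATAAA motif, which 13.6% hold. Exons of Col4a1 and Col4a2 overlap in the annotation, so a few reads near the start may be split uncertainly.

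Laminin-111, the laminin of early embryonic basement membranes, is built from the products of Lama1, Lamb1 and Lamc1. Lama1 (chromosome 17, bases 67697259 to 67822647 on the plus strand of GRCm38) had 3472 and 4062 CPM in Msx1-negative libraries, against 153 and 144 CPM in ES-labelled libraries (log2 fold change 4.67 ± 0.18 SE, adjusted p = 3.31e-07). Lamb1 had 2241 and 2527 CPM in Msx1-negative libraries, against 164 and 153 CPM in ES-labelled libraries, and Lamc1 had 3683 and 4065 CPM in Msx1-negative libraries, against 655 and 650.0 CPM in ES-labelled libraries. In all 3 the groups were far apart relative to the replicates. Together the 3 laminin and 2 collagen IV genes took 19434 and 21068 CPM in Msx1-negative libraries, against 1071 and 1047 CPM in ES-labelled libraries. Lama1 also parted the sorted fractions, with 3472 and 4062 CPM in Msx1-negative libraries, against 118 and 96.6 CPM in Msx1-positive libraries (log2 fold change 5.13). Sparc, a collagen-binding protein that parietal endoderm secretes in quantity, had 3806 and 3541 CPM in Msx1-negative libraries, against 324 and 321 CPM in ES-labelled libraries. Pth1r, the receptor of parathyroid hormone-related protein and a classical parietal endoderm marker, had 245 and 265 CPM in Msx1-negative libraries, against 1.5 and 0.921 CPM in ES-labelled libraries. Aqp8, a water channel, had 102 and 101 CPM in Msx1-negative libraries, against 0.0193 and 0.157 CPM in ES-labelled libraries and 1.64 and 1.23 CPM in Msx1-positive libraries. Plat, a plasminogen activator, rose against ES-labelled cells but was lower than in Msx1-positive cells (51.6 and 51.1 CPM in Msx1-negative libraries, against 127 and 133 CPM in Msx1-positive libraries).

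Visceral endoderm takes up maternal protein through the receptors megalin (Lrp2) and cubilin (Cubn) with the adaptor Dab2. Of 20 tested genes of uptake and brush border, 16 were higher and none lower (median 2.46). Among all tested genes 28.5% were higher and 24.5% lower. Cubn had 215 and 233 CPM in Msx1-negative libraries, against 0.907 and 0.706 CPM in ES-labelled libraries (log2 fold change 8.11 ± 0.18 SE, adjusted p = 2.94e-12). Lrp2 had 226 and 255 CPM in Msx1-negative libraries, against 46.9 and 44.7 CPM in ES-labelled libraries, and Dab2 had 207 and 199.5 CPM in Msx1-negative libraries, against 1.58 and 1.39 CPM in ES-labelled libraries. All 3 parts of this uptake route rose, and the lysosomal cathepsins Ctsh and Ctsl rose by 6.58 and 2.36. Secreted products of visceral endoderm and fetal liver were a mixed group of 13 higher, 3 lower and 5 not called among 21 tested. Afp, alpha-fetoprotein, had 11.7 and 12.1 CPM in Msx1-negative libraries, against 0 and 0.0784 CPM in ES-labelled libraries, and Ttr had 12.4 and 10.6 CPM in Msx1-negative libraries against no count in ES-labelled libraries. These defining products stayed far below the collagen IV and laminin genes in CPM, a scale that longer genes also raise. Apob and Rbp4 rose by 4.55 and 2.72, while Apoe had 875 and 844 CPM in Msx1-negative libraries, against 1276 and 1207 CPM in ES-labelled libraries, and Apoa2 and Cpn1 were also lower.

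Trophoblast genes, which mark the placental lineage, rose in 16 of 19 tested members, with 2 not called. Among all tested genes 28.5% were higher and 24.5% lower. Tead4, a factor of early trophoblast, was lower by 0.28, a call that was lost without Msx1-negative replicate 1 (adjusted p = 0.139), without ES-labelled replicate 2 (adjusted p = 0.0903) and with scaling by library size alone (adjusted p = 0.114). Plac1 had 35.7 and 29.5 CPM and Tpbpa 12.3 and 10.4 CPM in Msx1-negative libraries, with no count in ES-labelled libraries. Esx1, an X-linked homeobox gene of the placenta, had 43.0 and 45.3 CPM in Msx1-negative libraries, against 4.05 and 2.53 CPM in ES-labelled libraries, and Krt7, a simple keratin, had 104 and 99.6 CPM in Msx1-negative libraries, against 3.14 and 2.41 CPM in ES-labelled libraries. Tfap2c and Gata3, factors of trophoblast that other tissues also express, rose by 1.09 and 6.46. Ctsj, a placental cathepsin, had no count in ES-labelled cells and was at least 134-fold higher. Tpbpa had 12.3 and 10.4 CPM in Msx1-negative libraries, against 0.227 and 0.499 CPM in Msx1-positive libraries.

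**Figure D3:**
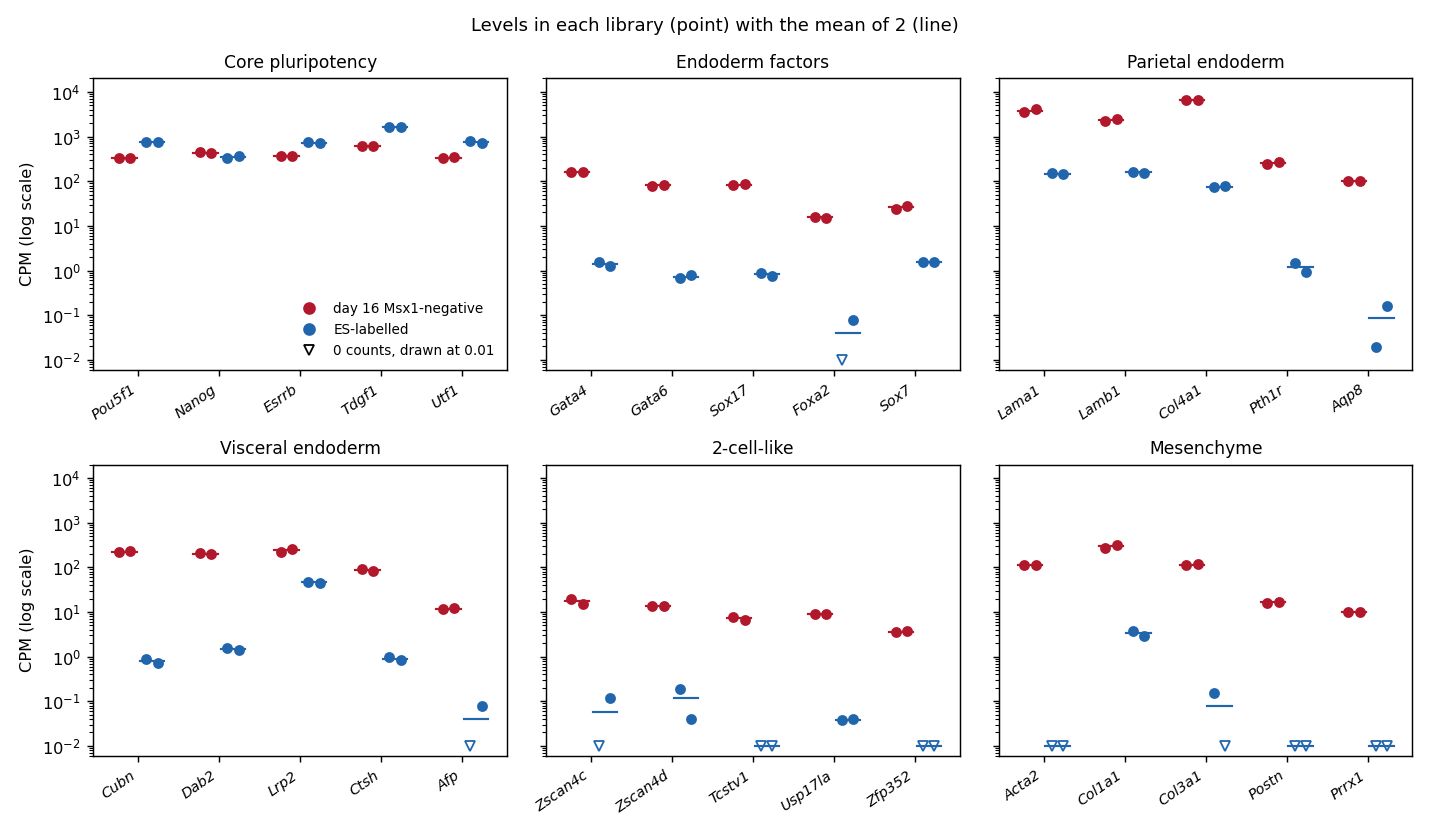
Points give the CPM (log scale) of the named genes in each library of day 16 Msx1-negative cells (red, left of each pair) and ES-labelled cells (blue), with lines at the mean of 2, and open triangles mark 0 counts. Core pluripotency genes lie close together in both groups, while nearly all genes of the other panels are separated by more than a factor of 10. Replicates lie close together except where ES-labelled libraries hold only a few counts.

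Epithelial genes moved in both directions, with 12 higher and 8 lower of 24 tested, beside 28.5% higher and 24.5% lower over all tested genes. The simple keratins rose, with Krt8 at 638 and 648 CPM in Msx1-negative libraries, against 13.8 and 14.3 CPM in ES-labelled libraries, and Krt18 and Krt19 by 4.86 and 4.77 on the log2 scale. Cdh1, E-cadherin, had 391 and 422 CPM in Msx1-negative libraries, against 588 and 567 CPM in ES-labelled libraries, and Epcam had 172 and 179 CPM in Msx1-negative libraries, against 248 and 249 CPM in ES-labelled libraries. Both were lower than in ES-labelled cells, yet 23 of the 24 genes were higher than in Msx1-positive cells. Against Msx1-positive cells 30.8% of all tested genes were higher and 30.5% lower. Markers of epidermis gave 7 higher and 4 lower of 17, with 6 not called. Their summed level was lower, at 164 and 167 CPM in Msx1-negative libraries, against 333 and 323 CPM in ES-labelled libraries. Abundant members can set such a sum. The defining keratin Krt14, low in both groups, had 2.57 and 3.11 CPM in Msx1-negative libraries, against 0.617 and 0.353 CPM in ES-labelled libraries.

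Mesenchymal genes also rose against ES-labelled cells, but to levels well below those of Msx1-positive cells. Of 27 tested genes of mesenchymal matrix, 24 were higher and 3 lower than in ES-labelled cells, and 26 were lower than in Msx1-positive cells. Over all tested genes 28.5% were higher and 24.5% lower against ES-labelled cells, and 30.8% and 30.5% against Msx1-positive cells. Col3a1 had 110.2 and 119 CPM in Msx1-negative libraries, against 0.154 and 0 CPM in ES-labelled libraries and 2430.5 and 2248 CPM in Msx1-positive libraries. Col1a1 had 275 and 320.2 CPM in Msx1-negative libraries, against 3.8 and 2.84 CPM in ES-labelled libraries and 7758 and 6972 CPM in Msx1-positive libraries. In both collagens the Msx1-negative libraries lay between the other groups, without overlap. Tnc, tenascin C, had 77.3 and 81.6 CPM in Msx1-negative libraries, against 0 and 0.0784 CPM in ES-labelled libraries and 1567 and 1381 CPM in Msx1-positive libraries. Thy1 fell by 0.92, as did Fn1, fibronectin, and Eln, elastin, by 0.23 and 0.45. Neither held on leaving out 1 library: the adjusted p was 0.264, 0.0791 and 0.236 for Fn1 without Msx1-negative replicate 1, Msx1-negative replicate 2 and ES-labelled replicate 1, and 0.0604 and 0.239 for Eln without Msx1-negative replicate 2 and ES-labelled replicate 1. The Fn1 call was also lost when scaled by library size alone (adjusted p = 0.218). Over the list, 1 gene was lower without Msx1-negative replicate 2 or without ES-labelled replicate 1. Vim, vimentin, rose by 1.78, with 194 and 209 CPM in Msx1-negative libraries.

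Of 33 tested ectomesenchyme genes, 29 were higher than in ES-labelled cells, and Dlx2 was the 1 lower. Over all tested genes 28.5% were higher and 24.5% lower. The list summed to 244 and 246 CPM in ES-labelled libraries, of which Dlx2 made up 219 and 222 CPM. Members with few or no counts there could hardly be called lower, so the count of 29 is no separate support. Prrx1, a homeobox factor of limb and face mesenchyme, had 10.1 and 9.9 CPM in Msx1-negative libraries, no count in ES-labelled libraries and 611 and 612 CPM in Msx1-positive libraries. Pdgfra, a growth factor receptor of mesenchyme and also of primitive endoderm, had 143 and 151 CPM in Msx1-negative libraries, against 0.791 and 0.647 CPM in ES-labelled libraries and 208 and 192 CPM in Msx1-positive libraries. Twist1 had 9.77 and 12.7 CPM in Msx1-negative libraries, against 4.98 and 4.9 CPM in ES-labelled libraries, and Dlx3 rose by 3.64. Dlx3, which trophoblast also uses, was the 1 list member higher than in Msx1-positive cells, and 31 were lower. Against Msx1-positive cells 30.8% of all tested genes were higher and 30.5% lower. Neural crest and plate border genes gave 16 higher and 2 lower of 24, with Sox9 at 4.74 and 5.22 CPM and Nr2f2 at 19.6 and 22.4 CPM in Msx1-negative libraries, against 0.154 and 0.0784 CPM and 0 and 0.0784 CPM in ES-labelled libraries. Without Msx1-negative replicate 1, Msx1-negative replicate 2 or ES-labelled replicate 1, 1 crest gene was lower. All 17 smooth muscle genes rose against ES-labelled cells, and all 17 were lower than in Msx1-positive cells. Acta2 had 111 and 111 CPM in Msx1-negative libraries and 973 and 1031 CPM in Msx1-positive libraries, and Tpm1, a tropomyosin, had 420.4 and 395 CPM in Msx1-negative libraries, against 50.9 and 48.4 CPM in ES-labelled libraries. Of the 39 tested Hox genes, which pattern the body axis, 32 were higher than in ES-labelled cells and none lower, while 35 were lower than in Msx1-positive cells. All 39 together summed to 11.1 and 10.9 CPM in ES-labelled libraries. Hox genes with few or no counts there could hardly be called lower, so the count of 32 is no separate support. Hoxb9 had 7.04 and 9.21 CPM in Msx1-negative libraries, against 1.6 and 0.98 CPM in ES-labelled libraries and 59.3 and 60.9 CPM in Msx1-positive libraries.

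Msx1-negative cells held 1.01% of the mean Msx1 level of Msx1-positive cells. On the same measure the median was 4.04% over 17 tested osteoblast genes, 5.28% over mesenchymal matrix, 8.56% over ectomesenchyme, 18.4% over Hox genes and 20.1% over smooth muscle. It was 194% over parietal endoderm and 1474% over core pluripotency. Single genes ranged widely, with Postn at 1.37%, Prrx1 at 1.64%, Col3a1 at 4.91% and Acta2 at 11.1%. Dmp1, a matrix gene of osteocytes, stood at 0.111%, with 0.229 and 0.327 CPM in Msx1-negative libraries, against 256 and 245 CPM in Msx1-positive libraries. The part of Msx1-positive cells left in the sorted fraction in these levels was not tested.

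**Figure D4:**
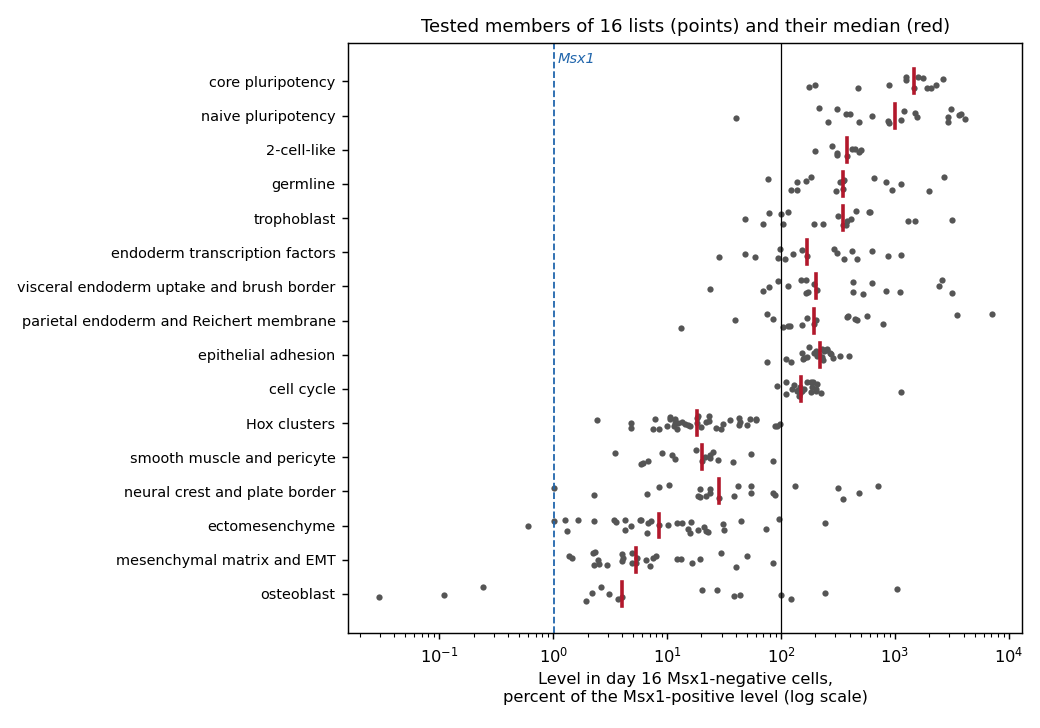
Each point is a tested list member, placed by its mean CPM in day 16 Msx1-negative cells as a percent of its mean in Msx1-positive cells of day 16 (log scale), with the list median in red, a line at 100% and a dashed line at Msx1 (1.01%). Genes with no count in Msx1-negative cells are not drawn. Pluripotency, 2-cell-like and trophoblast medians lie to the right of 100%, and Hox, muscle and mesenchyme medians to the left.

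Markers of other derivatives moved in both directions, as did all tested genes, of which 28.5% were higher and 24.5% lower. Several counts below lie near these shares. Neural genes gave 10 higher and 8 lower of 25 tested. Olig2 had 9.75 and 10.4 CPM in Msx1-negative libraries, against 45.1 and 50.2 CPM in ES-labelled libraries, and Stmn2, Neurod1 and Elavl3 also fell. Nes, an intermediate filament of neural progenitors, rose by 1.19. Endothelial genes gave 11 higher and 4 lower of 18. Cdh5, VE-cadherin, had 56.3 and 63.3 CPM in Msx1-negative libraries, against 0.174 and 0.274 CPM in ES-labelled libraries, and Tie1 and Flt1 rose by 6.02 and 4.52, while Robo4 and Plvap fell. Embryonic globins, which primitive red cells make, summed to 20.03 and 18.81 CPM in Msx1-negative libraries, with no count in ES-labelled libraries, over the genes Hba-x, Hbb-bh1 and Hbb-y. The erythroid factors Gata1 and Epor were lower, by 1.42 and 1.71. Blood and erythroid genes were 7 higher and 4 lower of 15. Of 17 listed macrophage genes 7 did not pass the count filter, and of the 10 tested 5 were higher, 1 lower and 4 not called. The summed level of the list was lower, at 87.4 and 88.8 CPM in Msx1-negative libraries, against 175 and 179 CPM in ES-labelled libraries. Most of that sum, and its direction, came from 1 gene, Laptm5, a lysosomal membrane protein of blood cells. Laptm5 was the lower member, with 58.64 and 59.97 CPM in Msx1-negative libraries, against 160.2 and 163 CPM in ES-labelled libraries. Among the higher ones, Csf1r had 2.86 and 3.17 CPM and Cybb 4.24 and 4.45 CPM in Msx1-negative libraries, against 0.0386 and 0 CPM and 0.772 and 0.804 CPM in ES-labelled libraries. Cardiac genes were 9 higher and 4 lower of 16, and skeletal muscle genes 6 higher and 5 lower of 14. Actc1, the actin of heart muscle, had 2.36 and 2.91 CPM in Msx1-negative libraries and no count in ES-labelled libraries, while Ttn, titin, fell by 1.32. Kidney and podocyte genes were 6 higher and 1 lower of 10, the lower being Nphs1, nephrin, with 28.9 and 25.9 CPM in Msx1-negative libraries, against 146 and 123 CPM in ES-labelled libraries. Chondrocyte genes were 11 higher and 2 lower of 18, osteoblast genes 10 higher and 1 lower of 17, and primitive streak genes 8 higher and 2 lower of 15. Without Msx1-negative replicate 1 the lower genes numbered 3 for skeletal muscle, 2 for endothelium and 1 for the primitive streak. Without ES-labelled replicate 1 they numbered 2 for endothelium and 1 for the streak, with 3 macrophage genes higher, and without ES-labelled replicate 2 there was 1 for the streak.

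Among signalling genes, several targets and inhibitors of the FGF and ERK pathway fell, as did the ligand Fgf4, while Spry1 and Dusp4 rose by 0.64 and 0.70. Spry4 and Etv4 fell by 3.25 and 1.93, and Dusp6, Etv5 and Spry2 by smaller amounts, while the receptor gene Fgfr2 had 44.2 and 51.1 CPM in Msx1-negative libraries, against 5.25 and 4.27 CPM in ES-labelled libraries. The list as a whole held 11 higher and 6 lower of 20, beside 28.5% higher and 24.5% lower over all tested genes. In the BMP and TGF-beta list, 17 of 25 were higher and 7 lower. Bmp4, a ligand, had 9.83 and 9.19 CPM in Msx1-negative libraries, against 45.7 and 41.4 CPM in ES-labelled libraries, and Id1, a target of BMP signalling, had 17.6 and 15.5 CPM in Msx1-negative libraries, against 95.8 and 88.0 CPM in ES-labelled libraries. Fst, the activin antagonist follistatin, had 151 and 136 CPM in Msx1-negative libraries, against 3.63 and 3.8 CPM in ES-labelled libraries, and Nog, the BMP antagonist noggin, had 28.8 and 31.6 CPM in Msx1-negative libraries, against 0.0772 and 0.333 CPM in ES-labelled libraries. Both antagonists were also higher than in Msx1-positive cells. Against those cells the BMP and TGF-beta list held 9 higher and 14 lower genes, and the FGF list 4 and 11. The counts were 4 and 17 for WNT, 2 and 10 for Hedgehog, 5 and 8 for Notch, and 4 and 12 for retinoid genes. In that comparison 30.8% of all tested genes were higher and 30.5% lower. WNT genes were 14 higher and 4 lower of 24, with the antagonist Dkk1 at 13.1 and 11.9 CPM in Msx1-negative libraries, against 0.0772 and 0 CPM in ES-labelled libraries, and the receptor gene Fzd5 lower by 1.92. Hedgehog genes were 10 higher and 3 lower of 14. The ligand gene Ihh, which visceral endoderm expresses, had 15.690 and 16.996 CPM in Msx1-negative libraries, against 0.598 and 0.686 CPM in ES-labelled libraries and 1.69 and 1.86 CPM in Msx1-positive libraries, while the target Gli1 fell by 1.23. Notch genes were 7 higher and 3 lower of 17, with 4 higher without ES-labelled replicate 2. Retinoid genes were 14 higher and 2 lower of 17. Cyp26a1, which degrades retinoic acid, had 65.5 and 67.3 CPM in Msx1-negative libraries, against 0.135 and 0.392 CPM in ES-labelled libraries, and Stra6, the retinol uptake receptor, had 25.3 and 24.9 CPM in Msx1-negative libraries, against 0.309 and 0.314 CPM in ES-labelled libraries, while the receptor genes Rara and Rarg fell.

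On the list of IGF signalling and imprinted growth, 16 of 19 tested genes were higher and 3 lower than in ES-labelled cells. Over all tested genes 28.5% were higher and 24.5% lower. The list holds IGF signalling genes beside imprinted ones, so this is not a count of imprinted genes alone. Against Msx1-positive cells, 5 of the 19 were higher and 13 lower, where 30.8% of all tested genes were higher and 30.5% lower. H19 had 672 and 673 CPM in Msx1-negative libraries, against 7.72 and 11.2 CPM in ES-labelled libraries, and its neighbour Igf2 had 128 and 152 CPM in Msx1-negative libraries, against 0.482 and 1 CPM in ES-labelled libraries. Peg10, which the placenta needs, had 3158 and 3485 CPM in Msx1-negative libraries, against 1079 and 1075 CPM in ES-labelled libraries. Phlda2, Igf2r and Grb10 were the lower members, with Phlda2 at 17.4 and 16.6 CPM in Msx1-negative libraries, against 59.6 and 56.2 CPM in ES-labelled libraries.

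Of 24 cell cycle genes, 20 were lower and none higher than in ES-labelled cells, with a median of -0.45. Ccne1, the G1/S cyclin, had 107 and 108 CPM in Msx1-negative libraries, against 315 and 319.8 CPM in ES-labelled libraries, and Cdc20, an activator of mitotic exit, had 212 and 204 CPM in Msx1-negative libraries, against 402 and 380.4 CPM in ES-labelled libraries. Against Msx1-positive cells 22 of the 24 were higher in Msx1-negative cells. The D cyclins parted, with Ccnd2 at 54.8 and 59.0 CPM in Msx1-negative libraries, against 2.66 and 2.47 CPM in ES-labelled libraries, and Ccnd1 lower by 0.89. Lysosomal enzyme genes were 24 higher and none lower of 25. Lgmn, the protease legumain, had 220.3 and 219 CPM in Msx1-negative libraries, against 32.5 and 33.2 CPM in ES-labelled libraries, and Psap, prosaposin, had 556 and 556 CPM in Msx1-negative libraries, against 238 and 228 CPM in ES-labelled libraries. Cholesterol synthesis genes were 14 lower and 1 higher of 18, the higher being Insig1, a brake on that pathway. Idi1 had 34.9 and 37.1 CPM in Msx1-negative libraries, against 77.9 and 76.6 CPM in ES-labelled libraries. Glycolysis and hypoxia genes were 12 higher and 7 lower of 22, where 28.5% of all tested genes were higher and 24.5% lower. The glucose transporter genes Slc2a3 and Slc2a1 had 2359 and 2442 CPM and 953 and 1016 CPM in Msx1-negative libraries, against 717 and 721 CPM and 461 and 466 CPM in ES-labelled libraries, and Hk2, hexokinase 2, fell by 1.28. Of 13 mitochondrially encoded genes 2 were called, both higher. Nuclear lamina genes were 8 higher and 7 lower of 16, and MHC class I genes 7 higher and 2 lower of 12, with B2m at 42.4 and 35.1 CPM in Msx1-negative libraries, against 7.77 and 9.74 CPM in ES-labelled libraries. Genes of the D cyclins, CDK inhibitors and p53 targets were 10 higher and 7 lower of 20. Set against Msx1-positive cells, 6 of the 20 were higher and 12 lower, beside 30.8% and 30.5% of all tested genes. Without Msx1-negative replicate 1, 4 genes each of this list and of the lamina list were lower, and 1 MHC class I gene. The MHC count was also 1 without Msx1-negative replicate 2 and 0 without ES-labelled replicate 1. Mitochondrial genes were 1 higher without Msx1-negative replicate 1, and 1 higher and 2 lower without ES-labelled replicate 1.

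Immediate early genes, which cells switch on within minutes of stimulation and also while tissue is being dissociated, were 10 higher and 5 lower of 16. The shares over all tested genes were 28.5% higher and 24.5% lower. Fosb had 265 and 261 CPM in Msx1-negative libraries, against 0.714 and 0.745 CPM in ES-labelled libraries (log2 fold change 8.49 ± 0.099 SE, adjusted p = 2.26e-19). Fos had 151 and 138 CPM in Msx1-negative libraries, against 8.72 and 5.47 CPM in ES-labelled libraries, Jun had 159 and 174 CPM in Msx1-negative libraries, against 18.4 and 17.4 CPM in ES-labelled libraries, and Atf3 rose by 3.32. Egr1, Ier2 and Nr4a1, which are induced in the same way, fell by 0.43, 0.51 and 1.36. Only the embryoid body cells were labelled as sorted, and the part of cell dissociation and sorting in these values was not tested.

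Against Msx1-negative cells of day 8, 4301 genes were higher at day 16, 19.11% of those tested, and 4068 lower, 18.08%. A log2 change of at least 1 was reached by 2078 higher genes (9.234%) and 302 lower genes (1.342%). Scaling by library size alone gave 4943 higher and 3055 lower. All 19 tested parietal endoderm genes were higher at day 16 than at day 8 (median 3.12). Lama1 had 3472 and 4062 CPM in day 16 libraries, against 102 and 101 CPM in day 8 libraries (log2 fold change 5.22), and the day 8 level lay below that of ES-labelled cells, 153 and 144 CPM. Col4a1 had 6533 and 6681 CPM in day 16 libraries, against 183 and 184 CPM in day 8 libraries. Cubn had 215 and 233 CPM in day 16 libraries, against 70.8 and 73.5 CPM in day 8 libraries, and Gata4 had 163 and 165 CPM in day 16 libraries, against 11.3 and 13.0 CPM in day 8 libraries. Of 17 endoderm factors, 11 were higher at day 16 than at day 8 and 1 lower. All 9 2-cell-like genes and 24 of 27 mesenchymal matrix genes were higher at day 16, and 12 of 13 core pluripotency genes were lower. Pou5f1 had 329.7 and 339 CPM in day 16 libraries, against 544 and 539.7 CPM in day 8 libraries. Nanog, with 445 and 426 CPM in day 16 libraries, against 434 and 415 CPM in day 8 libraries, was not called between the days (adjusted p = 0.745). Zic2 was highest at day 8, with 52.6 and 64.0 CPM in day 16 libraries, against 124 and 123 CPM in day 8 libraries. In both comparisons the Msx1-negative libraries of day 16 are the same, so their changes are not independent of each other.

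**Figure D5:**
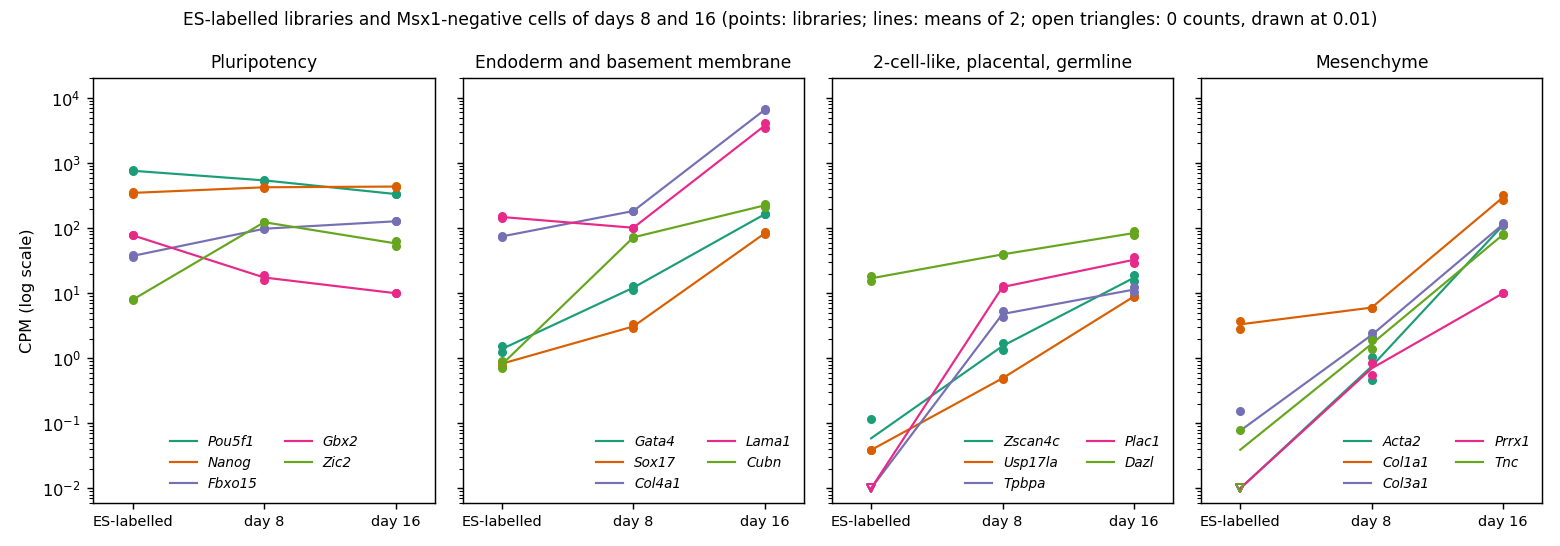
Levels of genes of 4 kinds (CPM, log scale) in ES-labelled libraries and in Msx1-negative libraries of days 8 and 16, with a point for each library and lines through the means of 2. Lama1 is flat or lower up to day 8 and higher at day 16, while Gata4, Cubn and the 2-cell-like genes climb at both steps. Nanog stays between 332 and 445 CPM in the 6 libraries.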

How the data were processed

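Gene expression was measured by RNA-seq. The labels name TRI Reagent for RNA extraction and an NEBNext Ultra kit for the libraries, with no mention of strand. The authors deposited whole-number read counts per gene symbol; fastp 0.20.0, HISAT2 2.1.0, DESeq2 1.18.1 and GRCm38 are named in the submitters' processing notes. Which program counted reads, and on which annotation, is not given in the sources used here.

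Groups were taken from the labels, and the members, gene lists and tests were chosen with earlier results of these data known. Counts of all 10 libraries (5 groups of 2; total counts 53797597 to 107770730) were fitted together in edgeR 4.0.16 (R 4.3.3) after filterByExpr, with TMM scaling, robust quasi-likelihood tests and Benjamini-Hochberg adjustment over all 22504 tested genes. CPM used TMM effective sizes. The fit was tested on simulated data. SEs were derived from the log2 change and the F statistic. Floors of 3 counts and 95% intervals cover counting error only.

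Named genes are Dlx2, Msx1, Tmpo, the 15 largest called changes each way without overlap and with at least 10 CPM in the higher group, and from each of 44 lists (805 genes) up to 6 members of largest change or highest level, plus members against their list's majority. Promoters to print were chosen after values were seen. Alternatives were RLE and library-size scaling, no filter, at least 1 CPM in 2 libraries, DESeq2 1.42.0, a fit of the 2 groups alone, a replicate block, glmTreat and leaving out each library. Gene positions came from GENCODE and promoters from RefSeq. Tables of other time points were not used here. Some genes that the naming rule selects are not reported here.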

Additional observations from a re-analysis of the deposited data

Results flagged for a closer look

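Some named genes changed in opposite directions in the sorted fractions of day 16, each set against the same ES-labelled libraries, so the changes share those libraries. The difference itself, Msx1-negative over Msx1-positive, was tested in edgeR's quasi-likelihood fit, and the adjusted p was at most 1.85e-07 in every gene named here. Nanog had a log2 change of 0.32 in Msx1-negative cells and -4.40 in Msx1-positive cells, a difference of 4.72. Genes higher than in ES-labelled cells in the Msx1-negative fraction and lower in the Msx1-positive fraction differed by 5.23 for Tcl1, 5.19 for Prdm14, 5.13 for Lama1, 4.85 for Fbxo15, 4.31 for Stra8, 4.28 for Cybb, 3.95 for Dppa3, 3.49 for Dazl, 3.13 for Manba, 2.66 for Lrp2, 2.01 for Klf2, 1.79 for Tfap2c, 1.66 for Slc2a1, 1.52 for Otx2, 1.07 for Insig1. Lama1, the laminin chain gene, had 4.67 in Msx1-negative cells and -0.46 in Msx1-positive cells. Genes of the reverse pattern, lower than in ES-labelled cells in the Msx1-negative fraction and higher in the Msx1-positive fraction, differed by -4.63 for Eln, -3.93 for Thy1, -2.64 for Bmp4, -2.47 for Ccnd1, -2.27 for Egr1, -1.75 for Dusp6, -1.23 for Plvap, -1.18 for Dlx2, -0.99 for Fn1. The fall of Eln and of Fn1 in Msx1-negative cells was small, at -0.45 and -0.23, and lost its call under several settings. For these 2 genes the opposite direction thus rests on a call that did not hold. In Msx1-positive cells the falls of Lama1, Lrp2 and Otx2 were small, at -0.46, -0.27 and -0.36, with quasi-likelihood adjusted p = 0.0318, 0.0153 and 0.011. Changes of Msx1-positive against ES-labelled cells were not refitted under other settings. The test of the difference does not test opposite signs. Dlx2, the gene that the line overexpresses, was among the genes of the reverse pattern, with -0.67 in Msx1-negative cells and 0.52 in Msx1-positive cells. The ES-labelled libraries, labelled wild-type and untreated, also held Dlx2 reads, at 219 and 222 CPM, and whether that label is right was not tested.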

How the results depend on the processing

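One choice was changed at a time, but the count filter was applied anew to the libraries of each fit, so 20158 genes were tested in the fit of 2 groups and 23953 to 24064 when a library of either group was left out. Counts over all genes moved by over 1.5 times under 1 setting, a test against a log2 change of 1 (glmTreat in edgeR) in place of 0. It gave 2511 higher and 372 lower against ES-labelled cells, 1021 and 43 against day 8 Msx1-negative cells, and 2501 and 2631 against day 16 Msx1-positive cells. Without 1 library at a time, 5470 to 5747 genes were higher and 4440 to 4791 lower against ES-labelled cells, 3332 to 3626 and 2786 to 3191 against day 8, and 6050 to 6362 and 5976 to 6239 against Msx1-positive cells. A group left with 1 library was assumed to vary like the others. Counts over gene lists moved by over 1.5 times in 7 cases with library-size scaling, 4 with the filter of 1 CPM, 3 in the fit of 2 groups and 1 with DESeq2, beside 57 with glmTreat. Most were counts of 1 or 2 genes. Among the larger ones, lower genes fell to 4 of 20 D cyclin and p53 genes, 4 of 16 lamina genes and 2 of 18 endothelial genes with library-size scaling, and to 3 skeletal muscle genes with the 1 CPM filter. Mitochondrial genes called higher numbered 4 with DESeq2 and 6 in the fit of 2 groups. Scaling by library size alone gave 7322 higher and 4403 lower against ES-labelled cells and a median over all genes of 0.17, against 0.06 with composition scaling. With the replicate number as a block, 6243 genes were higher and 5409 lower. Correlations of same-numbered deviations ran from -0.0465 to 0.117. They cannot show whether replicate numbers pair the samples, because counting noise can hide a shared effect. The block cost Fn1 its call. No named gene reversed between Msx1-negative and ES-labelled cells, the only comparison in which named genes were followed. Outside glmTreat, Fn1, Eln and Tead4 were the named genes that lost a call. Msx1 passed the threshold without the count filter (log2 change 0.90) and without ES-labelled replicate 2 (1.88). With 2 libraries a group, genes of few counts have wide errors, and 2 libraries do not show how cultures vary.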
